A study of Mus musculus with 2 samples.

Results

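Resident-like macrophages were described here in mouse tumours of MC38-OVA, colon carcinoma cells made to express the antigen ovalbumin. They were the barcodes richest in 5 genes, Fcrls, Cbr2, Folr2, Stab1 and Col14a1. The base from which they were taken held 10119 of 18460 barcodes, those with at least 1 UMI of Ptprc, no UMI of Cd3d, Cd3e or Trac, and at least 5 UMIs of C1qa, C1qb, C1qc and Lyz2 together. Members were the 5% of this pooled base with the highest sum of the 5 genes per 10000 UMIs, 506 barcodes in all, 322 in the sitagliptin library and 184 in the control library. The other 5362 and 4251 barcodes are called the rest of the base. The sitagliptin library came from wild-type mice that carried these tumours and were fed sitagliptin, a drug that blocks the peptidase DPP4, in their diet. The control library came from wild-type mice with the same tumours on a control diet. In both, cells with CD45 were enriched from tumour suspensions by magnetic sorting and read with a droplet 5' kit. The labels name no inbred strain, age or number of mice per library. Each diet had 1 library, so no difference between diets has a replicate check, no test was run, and every interval covers counting error only.

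Macrophages of this kind line vessels and connective tissue in many healthy organs, where they take up debris, folate and glycoproteins and release chemokines and growth factors. Many are seeded before birth or are renewed slowly, and they differ from macrophages that have just arisen from blood monocytes. Fcrls encodes a scavenger receptor-like protein that in mice is best known from microglia, and Cbr2 a carbonyl reductase. Folr2 encodes folate receptor beta, Stab1 the scavenger receptor stabilin-1 and Col14a1 a collagen chain. Mrc1, the mannose receptor gene, belongs to the same marker set but played no part in choosing the members.

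The sitagliptin and control libraries held 9766 and 8694 barcodes with 76788699 and 64139749 UMIs and no barcode under 2001 UMIs. Members were deeper than the rest of the base, with medians of 9126 against 5451 UMIs in the sitagliptin library and 7216.5 against 4911 in the control library. The libraries shared 132 barcode sequences. Of the members, 8 sitagliptin and 2 control barcodes had such a sequence, and 0 sequences were a member in both. When the base was clustered without the 5 genes, 2 clusters with low depth (medians 2511 and 2527 UMIs) and granzyme genes among their leading genes were mostly of 1 library each. One had 1129 sitagliptin and 126 control barcodes, the other 189 and 832. They held 50 members. Without them 60 genes were past 2-fold upward and 132 downward in members over the rest, and 124 and 115 past 1.5-fold between diets, against the 62, 130, 142 and 126 described below.

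The values that chose the members were as follows, and they are a description only. Levels are in CPM, the UMIs of a gene scaled to all UMIs summed over the group in that library, a UMI being the tag that counts 1 captured transcript. No UMI of the 5 genes was seen in 56.8% of the base. Members scored between 7.92 and 33.8 per 10000 UMIs, with a median of 10.6, from 2 to 38 UMIs of these genes (median 9.50). The 20 members just inside the limit scored 7.92 to 8.09 and the 20 barcodes just outside 7.78 to 7.91, with a median of 4.50 UMIs in both, so the limit cuts a continuous range. Fcrls had 394 CPM in members and 40.8 CPM in the rest of the base of the sitagliptin library, and 287 and 22.1 CPM in the control library. Cbr2 had 242 CPM in members against 11.4 in the rest for sitagliptin, and 190.2 against 8.98 CPM for control. The values of Folr2 were 142 CPM in members against 16.1 in the rest for sitagliptin, and 207 against 19.6 CPM for control. For Stab1 they were 331 CPM in members against 61.5 in the rest for sitagliptin, and 335 against 62.8 CPM for control, and for Col14a1 117 CPM in members against 19.6 in the rest for sitagliptin, and 135 against 22.7 CPM for control. In both libraries each of the 5 genes lay above its level in the rest, as the choice of members requires.

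Few members rested on a single gene. Of the 506 members, 32 had UMIs of 1 of the 5 genes, 102 of 2, 151 of 3, 152 of 4 and 69 of all 5. Fcrls had the most UMIs of the 5 in 133 sitagliptin and 64 control members, and Stab1 in 90 and 50. Among members, Cbr2 was seen in 62.1% of those with Folr2 and in 44% of those without it. Col14a1 went the other way with Cbr2, seen in 44.6% of members with Cbr2 and 54.4% of those without. These shares depend on depth and on the limit set for the sum.

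**Figure D1:**
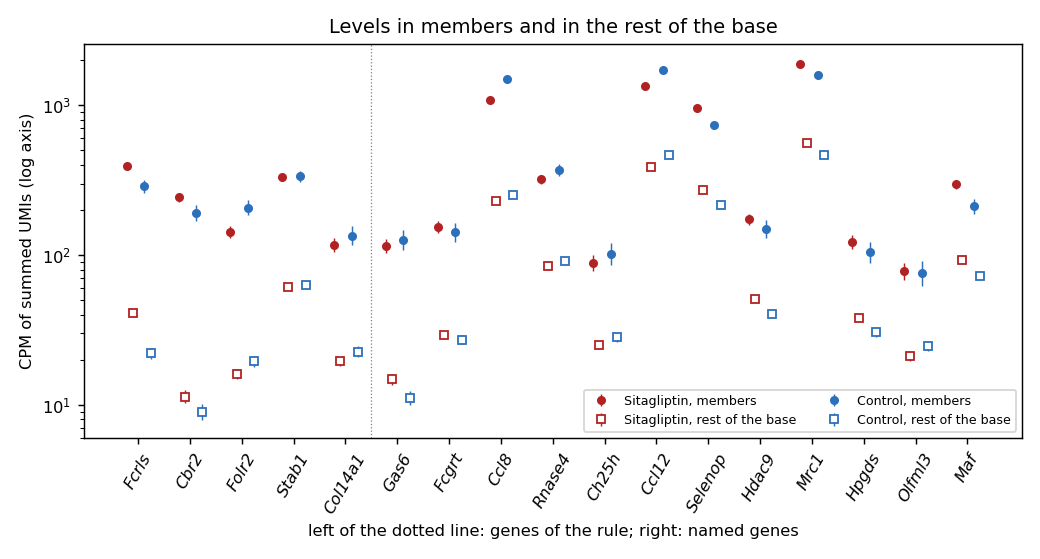
CPM of summed UMIs on a log axis for the 5 genes of the rule (left of the dotted line) and the 12 genes highest in members over the rest (right), with 95% counting intervals. Filled circles are members and open squares the rest of the base, red for the sitagliptin library and blue for the control library; for every gene shown, both circles lie above both squares.

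The promoters of 4 of these genes are shown, Fcrls, Cbr2 and Stab1 of the rule and Mrc1 of the named genes. They are RefSeq sequences of GRCm38.p6, from 250 bases before to 50 bases after the annotated start, printed 5′ to 3′ on the strand of the gene. Capitals mark GAGGAA, the core bound by the macrophage factor PU.1, and TGCTGA, a half-site of MAF factors, each searched on both strands (TTCCTC and TCAGCA on the other).
Fcrls, chr3:87263475-87263774, minus strand: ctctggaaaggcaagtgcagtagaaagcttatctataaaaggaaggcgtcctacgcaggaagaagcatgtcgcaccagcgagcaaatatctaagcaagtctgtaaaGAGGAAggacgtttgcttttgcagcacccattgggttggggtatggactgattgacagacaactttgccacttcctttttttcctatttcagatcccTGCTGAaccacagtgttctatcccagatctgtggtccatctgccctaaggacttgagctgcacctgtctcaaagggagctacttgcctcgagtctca
Cbr2, chr11:120731972-120732271, minus strand: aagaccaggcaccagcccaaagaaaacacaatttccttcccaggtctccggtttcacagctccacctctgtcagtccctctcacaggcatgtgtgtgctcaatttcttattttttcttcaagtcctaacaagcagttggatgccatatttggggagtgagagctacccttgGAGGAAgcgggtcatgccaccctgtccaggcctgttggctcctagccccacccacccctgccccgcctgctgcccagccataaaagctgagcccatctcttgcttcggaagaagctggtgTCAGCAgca
Stab1, chr14:31168592-31168891, minus strand: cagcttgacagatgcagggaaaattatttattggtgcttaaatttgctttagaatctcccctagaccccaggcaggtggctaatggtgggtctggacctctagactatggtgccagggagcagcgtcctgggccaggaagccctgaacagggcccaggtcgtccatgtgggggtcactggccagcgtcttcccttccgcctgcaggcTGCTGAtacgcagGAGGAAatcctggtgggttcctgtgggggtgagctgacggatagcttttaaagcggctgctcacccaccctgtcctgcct
Mrc1, chr2:14229164-14229463, plus strand: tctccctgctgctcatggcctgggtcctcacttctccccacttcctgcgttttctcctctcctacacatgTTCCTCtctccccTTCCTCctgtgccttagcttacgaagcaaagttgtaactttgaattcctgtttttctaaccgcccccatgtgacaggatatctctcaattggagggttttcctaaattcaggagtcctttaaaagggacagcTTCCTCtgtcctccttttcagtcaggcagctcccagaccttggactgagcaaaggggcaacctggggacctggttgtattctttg
The Fcrls, Cbr2 and Stab1 windows each held 1 match of each motif, and the Mrc1 window 3 matches of the PU.1 core and 0 of the MAF half-site. Of all 32851 promoters in the table, 28.3% held the PU.1 core and 19.5% the MAF half-site. Among the 5 genes of the rule and the 12 genes highest in members, 15 of 17 matched the table with 20 promoters, of which 11 held the PU.1 core and 8 the MAF half-site. A match is only a run of letters, not a site known to be used.

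Each of the 5 genes was also higher in barcodes chosen by the other 4. This is a description only, since the 5 genes were grouped with earlier results of these libraries known. Members were chosen again from 4 genes at a time, and the left-out gene was read in the 506 barcodes so chosen and in the others. Cbr2 then had 151 against 18.6 CPM in the sitagliptin library and 105 against 13.3 CPM in the control library, ratios of 8.15 and 7.86. Folr2 had 105 against 18.7 CPM in the sitagliptin library and 129.6 against 23.9 CPM in the control library (ratios 5.60 and 5.43), and Fcrls 258 against 52.6 CPM in the sitagliptin library and 150.5 against 28.1 CPM in the control library (4.91 and 5.36). The ratios were 3.50 and 3.12 for Stab1 and 3.82 and 2.75 for Col14a1, the lowest being Stab1 for sitagliptin and Col14a1 for control. Between 379 and 444 of the barcodes chosen by 4 genes were members under the full rule.

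Mrc1, Adgre1 and Csf1r, which the choice had not used, were higher in members than in the rest of the base. Adgre1 and Csf1r are general macrophage genes, and the marker set with Mrc1 was drawn up with earlier results of these libraries known. Resident macrophage markers that were scarce are given below. Mrc1 had 1893 CPM in members and 558 CPM in the rest of the base of the sitagliptin library, and 1579 and 466 CPM in the control library, ratios of 3.39 (3.29 to 3.49) and 3.39 (3.24 to 3.55). With every barcode thinned to 2000 UMIs, a Mrc1 UMI was seen in 88.8% of sitagliptin members and 84.8% of control members, against 48.2% and 42.1% of the rest. Without thinning the shares were 96.6% and 93.5%, against 65.9% and 59.3%. As a measure of free RNA, barcodes with at least 2 UMIs of Cd3d, Cd3e and Trac and none of the macrophage genes of the base (228 and 138, median depths 3158.5 and 3193 UMIs) had thinned shares of 3.95% and 1.45%. Because barcodes with any UMI of those macrophage genes were left out, the T cell shares given here and below can understate free macrophage RNA. Adgre1, the gene of the macrophage antigen F4/80, had 107 CPM in members against 41.7 in the rest for sitagliptin, and 101 against 37.5 CPM for control. Csf1r, the receptor for the macrophage growth factor M-CSF, had 484 CPM in members against 379 in the rest for sitagliptin, and 472 against 392 CPM for control. Ptprc, the gene of CD45, was slightly lower in members, with 588 CPM in members against 691 in the rest for sitagliptin, and 559 against 674 CPM for control.

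Markers of lymphocytes, fibroblasts and epithelial cells were low in members. Summed levels in sitagliptin and control members were 5.46 and 11.3 CPM over 7 fibroblast genes, 4.78 and 2.82 CPM over 6 B and plasma cell genes, 14.3 and 14.1 CPM over 6 T cell genes and 18.4 and 17.6 CPM over 5 NK cell genes. In the rest these sums were 36.1 and 50.02 CPM, 28.03 and 2.51 CPM, 24.8 and 31.3 CPM and 37.3 and 52.7 CPM. All 5 epithelial genes (Krt8, Krt18, Krt19, Epcam and Cldn4) were at 0 in members. In the rest they summed to only 1.95 and 1.85 CPM, so their absence from members says little about tumour RNA. The 4 markers of cDC2 dendritic cells summed to 4.44 and 7.05 CPM, the 4 of plasmacytoid dendritic cells to 2.73 and 0.705 CPM and the 5 of mast cells to 1.71 and 1.41 CPM. Sums of 36.9 and 33.1 CPM were read over 5 endothelial genes, 35.5 and 31.7 CPM over 4 cDC1 genes, 51.9 and 41.6 CPM over 4 genes of mature dendritic cells and 24.6 and 40.9 CPM over 5 osteoclast genes, against 29.4 and 35.6 CPM, 36.00 and 31.99 CPM, 61.99 and 72.8 CPM and 56.1 and 34.3 CPM in the rest. The 5 neutrophil genes came to 17.4 and 125 CPM, against 50.5 and 94.1 CPM in the rest, and in control members 83 of 120 S100a8 UMIs lay in 1 barcode. The part of these cells in the results below was not tested. The doublet caller Scrublet placed 2.17% of sitagliptin and 1.09% of control members among the 6% of barcodes with the highest scores, against 6.36% and 7.20% of the rest.

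The mannose receptor gene Mrc1, several monocyte-attracting chemokines and the transcription factor Maf were higher in members than in the rest of the base. Of 5526 genes with at least 20 CPM over the base of each library, 62 (1.12%) were at least 2-fold higher in both libraries and 130 (2.35%) at least 2-fold lower, 3.47% in either direction. Gas6, a ligand that bridges dying cells to uptake receptors, had 115 CPM in members and 14.8 CPM in the rest of the base of the sitagliptin library, and 126 and 11.2 CPM in the control library. Its level over the control base, 16.8 CPM, lay under the filter, so it is not among these counts. Its ratios were 7.78 (6.78 to 8.91) and 11.3 (9.34 to 13.6). Fcgrt, the heavy chain of the neonatal Fc receptor that recycles IgG, had 155 CPM in members against 29.1 in the rest for sitagliptin, and 142 against 27.3 CPM for control. Selenop, a secreted selenium carrier, had 951 CPM in members against 273 in the rest for sitagliptin, and 743 against 216 CPM for control. It was seen in most members before thinning (92.2% and 88.6%, with 9.21% and 5.80% of the T cell barcodes).

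The monocyte-attracting chemokines were prominent among the higher genes. Ccl8 had 1082 CPM in members and 229.5 CPM in the rest of the base of the sitagliptin library, and 1503 and 249.7 CPM in the control library (ratios 4.71 and 6.02). Ccl12 had 1341 CPM in members against 389 in the rest for sitagliptin, and 1715 against 463 CPM for control. Ccl7 reached ratios of 2.26 and 2.17 and Pf4, the gene of platelet factor 4, 2.43 and 2.43, with 1778 CPM in members against 731 in the rest for sitagliptin, and 2105 against 868 CPM for control. Of the chemokine and receptor list, 5 of 16 tested genes were past 2-fold upward, these 4 and Cx3cr1, the fractalkine receptor (2.27 and 2.02). Ccl5 and the receptor gene Ccr2 were past 2-fold downward, with Ccr2 at 59.8 CPM in members against 162 in the rest for sitagliptin, and 26.1 against 122 CPM for control. Ccl2 had ratios of 1.85 and 1.73 and thus missed the limit.

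Of the resident macrophage list without the 5 genes of the rule, 7 of 14 tested genes were past 2-fold upward and none downward, with median log2 ratios of 1.12 in the sitagliptin library and 1.25 in the control library. The medians over all tested genes were 0.00 and -0.04. The list was drawn up with earlier results of these libraries known. Besides Mrc1, Pf4, Selenop and Fcgrt they were F13a1, the clotting factor XIII A chain (716 CPM in members against 271 in the rest for sitagliptin, and 640.4 against 265 CPM for control), Maf, and the ubiquitin ligase gene Wwp1 (ratios 2.73 and 2.70). Maf, a transcription factor of mature macrophages, had 296 CPM in members and 93.4 CPM in the rest of the base of the sitagliptin library, and 212 and 72.3 CPM in the control library, ratios of 3.17 (2.94 to 3.42) and 2.93 (2.59 to 3.31). It was the 1 gene of 22 tested macrophage transcription factors past the limit. Dab2, an endocytic adaptor, had 1270.2 CPM in members against 669.9 in the rest for sitagliptin, and 967 against 564 CPM for control and stayed under 2-fold. The remaining highest genes by the ranking were Rnase4, a secreted ribonuclease (ratios 3.79 and 4.07), Ch25h, the cholesterol 25-hydroxylase (3.53 and 3.61), Hdac9, a histone deacetylase (3.39 and 3.71), Hpgds, the prostaglandin D synthase (3.20 and 3.41), and Olfml3, a secreted glycoprotein (3.69 and 3.08).

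Some genes of the lipid-associated list were higher in members. In the lipid-associated list, 4 of 13 tested genes passed 2-fold upward. They were Apoe, the lipid carrier (4119.8 CPM in members against 1675 in the rest for sitagliptin, and 3953 against 1490.2 CPM for control), the proteases Ctsb (2.08 and 2.40) and Ctsd (2.05 and 2.56), and the tetraspanin Cd63 (2.05 and 2.12). Spp1, the gene of osteopontin from the same list, had 1356 CPM in members against 2327 in the rest for sitagliptin, and 2515 against 3058 CPM for control. In the complement list C1qa passed upward (2.13 and 2.29), and C3 (0.291 and 0.488) and the integrin gene Itgax (0.247 and 0.233) downward, but C1qa counted toward the base and its level is no independent result. Of 13 tested scavenger and endocytic receptors, Mrc1 alone passed 2-fold. The median log2 ratios of that list were 0.47 in the sitagliptin library and 0.39 in the control library. Pdgfc, a growth factor (2.60 and 2.88), Timp2, a metalloproteinase inhibitor (2.52 and 2.61), and Tgfbr2, a receptor for TGF-beta (2.10 and 2.19), passed in their lists.

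Monocyte genes, MHC class II genes and inflammatory genes were lower in members. In the monocyte list, 9 of 13 tested genes were past 2-fold downward, with median log2 ratios of -1.98 in the sitagliptin library and -2.63 in the control library. Ly6c2, a marker of inflammatory monocytes, had 15.7 CPM in members and 127 CPM in the rest of the base of the sitagliptin library, and 9.16 and 102 CPM in the control library, ratios of 0.124 (0.0906 to 0.166) and 0.0901 (0.0479 to 0.154). Plac8 had 25.95 CPM in members against 178 in the rest for sitagliptin, and 19.7 against 182 CPM for control, and Vcan, the proteoglycan versican, 12.3 CPM in members against 87.1 in the rest for sitagliptin, and 14.1 against 87.2 CPM for control. Ly6i was at 0 UMIs in control members, against 61.3 CPM in the rest. Set against a floor of 3 counts it was at least 28.98-fold lower there, and its sitagliptin ratio was 0.0830. These differences were much smaller within the cluster that held most members (described below). There the median log2 ratio of the list over both libraries was -0.67, against -2.67 in the whole base. That of Ly6c2 was -0.63 against -3.24, that of Plac8 -0.73 against -2.99, that of Vcan -0.95 against -2.73 and that of Ly6i -0.36 against -4.22.

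Of the MHC class II list, 5 of 10 tested genes were past 2-fold downward. Cd74, the invariant chain, had 2184 CPM in members and 7877 CPM in the rest of the base of the sitagliptin library, and 2824 and 9087 CPM in the control library, ratios of 0.277 (0.270 to 0.284) and 0.311 (0.301 to 0.321). H2-Aa had 378 CPM in members against 1727 in the rest for sitagliptin, and 465 against 1896 CPM for control, H2-Eb1 311 CPM in members against 1435 in the rest for sitagliptin, and 403 against 1495 CPM for control, and H2-Ab1 and the loading factor H2-DMb1 had ratios of 0.292 and 0.333 and 0.340 and 0.412. Ctss, the protease that trims the invariant chain, had 3050.0 CPM in members against 2729.7 in the rest for sitagliptin, and 3514 against 2625 CPM for control. MHC class I genes gave 0 of 14 past 2-fold, with medians of -0.37 in the sitagliptin library and -0.24 in the control library.

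Of the inflammatory cytokine list, which also holds enzymes and receptors, 8 of 20 tested genes were past 2-fold downward. Il1b, the gene of interleukin-1 beta, had 910.3 CPM in members and 2654 CPM in the rest of the base of the sitagliptin library, and 809 and 2900.0 CPM in the control library, ratios of 0.343 (0.330 to 0.356) and 0.279 (0.263 to 0.296). Inhba, a subunit of activin A, had 36.9 CPM in members against 302 in the rest for sitagliptin, and 56.4 against 332 CPM for control, and Mmp12, the macrophage elastase, 93.2 CPM in members against 421 in the rest for sitagliptin, and 133 against 354 CPM for control. Ptgs2, the inducible cyclooxygenase, had 115 CPM in members against 439.8 in the rest for sitagliptin, and 179 against 499 CPM for control. The others were Cxcl3, Nos2, Il1r2 and Clec4e. Type I interferon genes gave 3 of 18 past 2-fold downward (Isg15, Irf7 and Ifi213), and the interferon gamma list 1 of 15 (Nos2). Of the alternative activation list, Mrc1 passed upward and Chil3 (0.283 and 0.0873) and Ccl17 (0.0155 (0.00188 to 0.0561) and 0.0564 (0.00682 to 0.205)) downward, while Arg1, arginase 1, had 3085 CPM in members against 2272 in the rest for sitagliptin, and 3121 against 2246 CPM for control. The remaining lowest genes by the ranking were Gzmc, Ifitm1, Nedd4, Dcstamp, Napsa and Hmga2, with ratios of 0.0817 to 0.176. Gzmc, a granzyme gene, had 6.49 CPM in members against 65.8 in the rest for sitagliptin, and 13.4 against 152 CPM for control. It was seen in 17.1% and 30.4% of the T cell barcodes, and granzyme genes led the 2 low-depth clusters of the base. Its log2 ratio, averaged over both libraries, was -3.42. It was -4.44 without those clusters, -2.30 with each barcode weighted alike, -1.83 with scores from thinned barcodes and -1.07 with the top 10%.

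No gene of several other lists passed. None of 18 tested cell cycle genes, 17 immediate early genes or 8 genes of iron and haem handling passed 2-fold in both libraries. Over all 5526 tested genes the share in either direction was 3.47%, so 0 in lists this short does not set them apart. Of 23 glycolysis and hypoxia genes, Egln3 passed, downward. The growth factor and matrix list had Sparc downward (0.166 and 0.266) besides the 2 genes named above. In the list of DPP4, its relatives and its substrates, 1 of 8 tested genes passed downward, Ccl5, at 25.6 CPM in members against 162 in the rest for sitagliptin, and 40.2 against 196 CPM for control.

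Some classical markers of resident macrophages were scarce. Timd4, a marker of self-renewing resident macrophages, had 1 UMI in sitagliptin members and 0 in control members. Cd163, the haemoglobin scavenger receptor, had 5.80 CPM in members against 1.56 in the rest for sitagliptin, and 7.05 against 0.800 CPM for control. All 10 Kupffer and serous cavity genes together came to 8.20 and 4.23 CPM in members. In the microglia list, Olfml3 and Cx3cr1 passed of 4 tested genes. The microglial genes P2ry12 (30.4 CPM in members against 11.2 in the rest for sitagliptin, and 22.5 against 10.2 CPM for control) and Tmem119 (21.9 CPM in members against 18.9 in the rest for sitagliptin, and 23.2 against 19.9 CPM for control) were low, and Sall1, a microglial transcription factor, was at 0 UMIs in members of both libraries. These 5 genes were picked after their values were seen.

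Lyve1, the hyaluronan receptor of perivascular macrophages, was seen in few members. It had a UMI in 21 of 322 sitagliptin members (6.52%, exact 95% interval 4.08 to 9.80) and 8 of 184 control members (4.35%, 1.90 to 8.39). In the rest of the base the shares were 1.12% and 0.423%, and in the T cell barcodes 0%. Thinned to 2000 UMIs, they were 4.04% of sitagliptin members and 1.63% of control members, against 0.559% and 0.259% of the rest. A single barcode held 40 of 104 Lyve1 UMIs of sitagliptin members, and another 25 of 39 of control members. The 29 members with Lyve1, pooled over both libraries, had 513 CPM of Cbr2 against 207 in the other members, and 333 against 152 CPM of Folr2. The other 3 genes of the rule were lower in them, Fcrls with 251 against 366 CPM, Stab1 with 251 against 338 and Col14a1 with 52.4 against 128. They had 1535 against 636 CPM of F13a1 and 26.2 against 4.90 CPM of Cd163. Mrc1 stood at 1793 and 1790.3 CPM. These 29 barcodes were picked after seeing their values.

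Some levels differed at every step of the score, and others mainly at the limit for members. The base was put in 5 bins: no UMI of the 5 genes, the other non-members below and above their median score, and the members below and above theirs. Through these bins, low to high, Mrc1 had 314, 563, 1058, 1711 and 2051 CPM in the sitagliptin library and 270.5, 511, 889, 1374 and 1789 CPM in the control library. Gas6 had 5.64, 11.8, 38.1, 69.2 and 155 CPM, and 3.48, 9.52, 32.6, 76.7 and 177 CPM. Cd74 was lower in each next bin, with 8876, 8414, 5059, 2891 and 1573 CPM, and 10306, 9165, 5942, 3619 and 2013.5 CPM in the control library. Il1b had 3397, 2336, 1560.0, 839 and 972 CPM, so that the last sitagliptin bin was above the one before it, and 3714, 2472, 1460.2, 955 and 659 CPM in the control library. Gzmc had 82.7, 52.4, 49.4, 8.10 and 5.09 CPM in the sitagliptin library and 179, 129.9, 113, 20.9 and 5.70 CPM in the control library, with its largest drop at the limit. Lyve1 had 1.71, 2.46, 5.38, 40.5 and 31.2 CPM, and 0.284, 1.16, 1.77, 4.18 and 51.3 CPM in the control library. The barcodes without a UMI of the 5 genes were the shallowest, with medians of 4155 and 3739 UMIs. The part of depth in the first step was not tested.

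**Figure D2:**
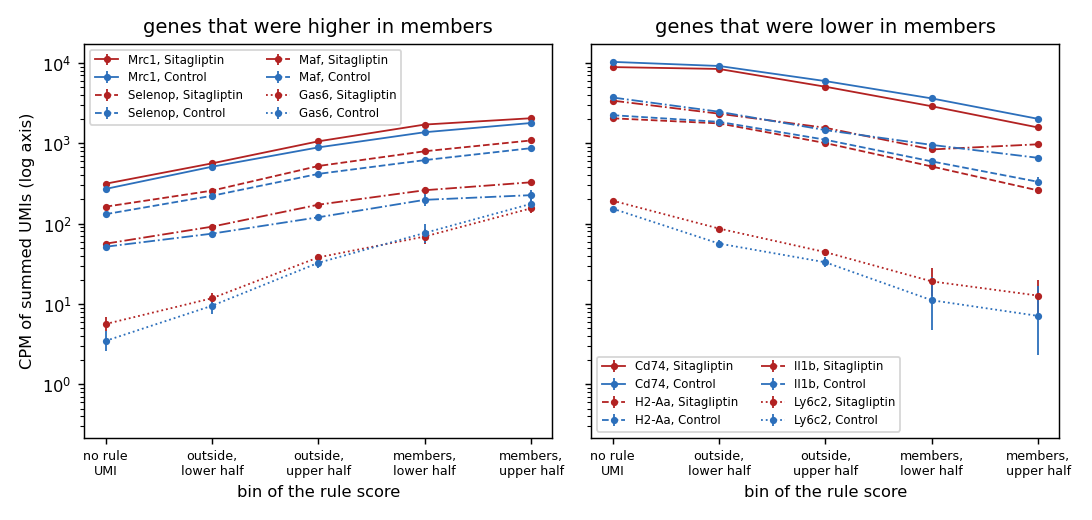
CPM (log axis) of 8 genes in 5 bins of the score of the 5 rule genes, from barcodes without a UMI of them to the members above their median score, with 95% counting intervals. Red is the sitagliptin library and blue the control library; Mrc1, Selenop, Maf and Gas6 are higher in each next bin, and Cd74, H2-Aa and Ly6c2 lower.

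Most members fell into 1 cluster when the base was clustered without the 5 genes. The cluster, led by Pf4, Ccl8, Hdac9, Rnase4, Pmp22 and Mrc1, held 217 of 322 sitagliptin members (67.4%) and 114 of 184 control members (61.96%). It made up 18.5% and 16.5% of the base, and 18.6% of its 1780 barcodes were members. The cycling cluster held 57 members (11.3%), the one led by Retnla, Lyz1 and Ear2 35 and the one led by Cxcl9 22. The cluster led by Ly6i, Ccl5 and Klrb1b and the cluster led by Aebp1 and Cavin3 held 0.

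Against the other barcodes of that same cluster, fewer genes were past the limit. Of 5214 tested genes, 9 (0.173%) were at least 2-fold higher in both libraries and 17 (0.326%) at least 2-fold lower. The higher genes were Gas6, Fcgrt, Ccl8, Fcna, Nrp1, Ctla2a, Fchsd2, Nxpe5 and Siglec1. Gas6 had 116 CPM in members against 39.5 in the others for sitagliptin, and 148 against 29.8 CPM for control, and Ccl8 1052 CPM in members against 494 in the others for sitagliptin, and 1458 against 622 CPM for control. Nrp1, which encodes neuropilin-1, had 171 CPM in members against 78.8 in the others for sitagliptin, and 148 against 69.8 CPM for control, and the sialoadhesin gene Siglec1 37.7 CPM in members against 18.1 in the others for sitagliptin, and 67.1 against 30.8 CPM for control. Mrc1 stayed under 2-fold, with 2020.5 CPM in members against 1167 in the others for sitagliptin, and 1782 against 1012 CPM for control. Pf4 had 1944 CPM in members against 1839.6 in the others for sitagliptin, and 2305 against 2321 CPM for control, close to equal in both. Lower genes included Cd74 (1403 CPM in members against 3022 in the others for sitagliptin, and 1690.0 against 3597 CPM for control), H2-Aa, H2-Eb1, Mmp12 (98.7 CPM in members against 635 in the others for sitagliptin, and 165 against 655 CPM for control), Mmp13, Inhba, Nos2, Areg and the lipid receptor gene Cd36 (40.5 CPM in members against 115 in the others for sitagliptin, and 53.1 against 138 CPM for control). Of the 12 highest named genes, 12 kept their direction within the cluster, with log2 ratios over both libraries of 0.73 to 1.94, against 1.61 to 3.23 in the whole base. For the 12 lowest they were -3.07 to -0.12, against -4.22 to -2.65, with Nedd4 nearest 0. The resident macrophage list had a median of 0.46 against 1.19, MHC class II -0.21 against -0.85 and type I interferon -0.13 against -0.93. Some list medians had the other sign within the cluster, among them interferon gamma response with 0.26 against -0.59, iron and haem handling with -0.05 against 0.33 and lipid-associated genes with -0.03 against 0.40. The genes listed by name are all those past the limit upward and 9 of the 17 past it downward.

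**Figure D3:**
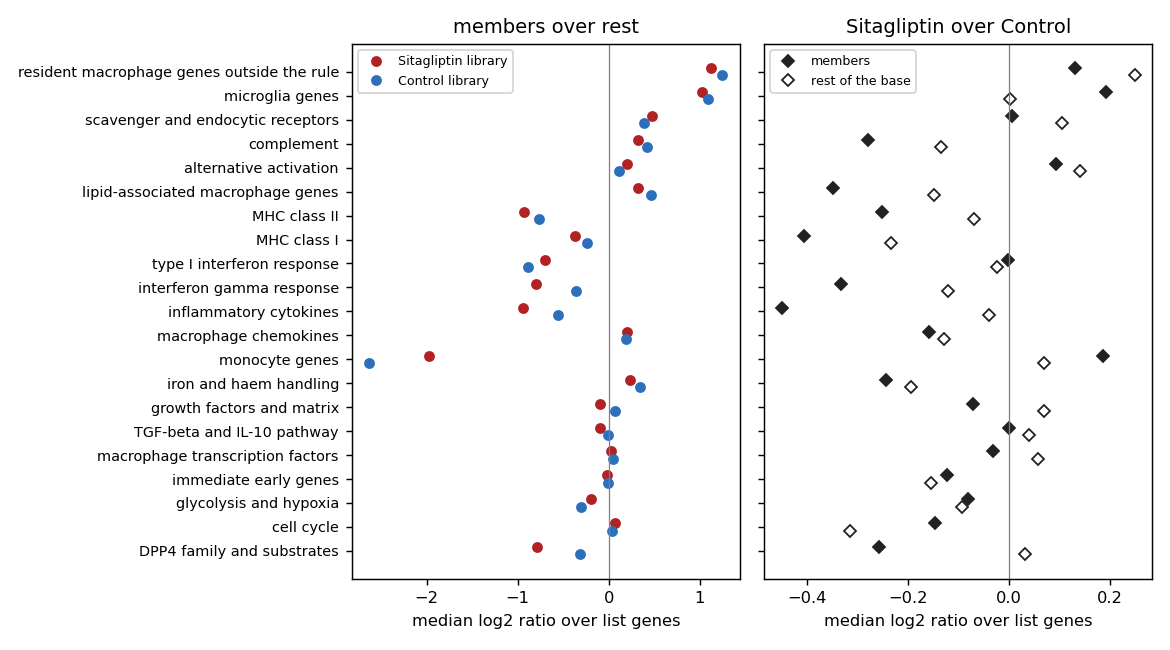
Median log2 ratio over the tested genes of each list (rows), on the left for members over the rest of the base in each library (red sitagliptin, blue control), on the right for sitagliptin over control within members (filled) and within the rest (open). Monocyte genes lie farthest below 0 on the left, and inflammatory cytokines farthest below 0 on the right in members.

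Members took a larger share of the base in the sitagliptin library. They were 322 of 5684 base barcodes there (5.67%, exact 95% interval 5.08 to 6.30) and 184 of 4435 in the control library (4.15%, 3.58 to 4.78). The ratio was 1.37 (1.14 to 1.63, log interval). Over all barcodes with Ptprc it was 1.40 (1.17 to 1.68) and over all barcodes 1.56 (1.30 to 1.86). The base itself was 58.2% of sitagliptin and 51.01% of control barcodes. With scores taken after thinning to 2000 UMIs the ratio was 1.25 (1.05 to 1.49), the top 10% gave 1.21 and the top 2.5% 1.54. The share also depended on which genes made up the rule. Chosen without Fcrls, members were 295 sitagliptin and 211 control barcodes of the same base. Without Cbr2 they were 312 and 194, without Stab1 320 and 186, without Folr2 333 and 173, and without Col14a1 327 and 179. Within the main cluster, members were 20.7% of sitagliptin and 15.6% of control barcodes. Sorting for CD45 and the lowest depth in the files, 2001 UMIs, can set such shares, and a difference between 2 libraries cannot be told apart from one between diets.

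**Figure D4:**
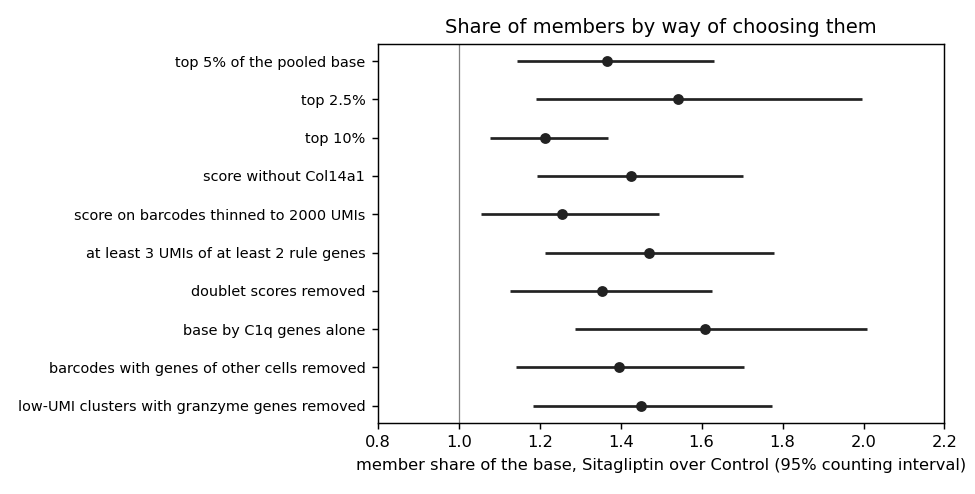
Ratio of the member share of the base, sitagliptin over control, with its 95% counting interval, for the rule (top row) and 9 other ways of choosing base or members. All 10 ratios lie above 1, between 1.21 and 1.61. The choice without Fcrls, where the 2 shares lay closer together, is not shown.

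The 5 genes of the rule did not move alike between diets within members, as a description. Fcrls had 394 CPM in sitagliptin members and 287 CPM in control members, a ratio of 1.37 (1.23 to 1.54), and in the rest of the base 40.8 and 22.1 CPM (1.85). Cbr2 had a ratio of 1.27 (1.11 to 1.47) in members and 1.27 in the rest. Folr2 lay on the other side of 1, with 142 CPM in sitagliptin members and 207 CPM in control members, ratios of 0.687 (0.591 to 0.801) in members and 0.824 in the rest. Stab1 stood at 0.990 and 0.980, and Col14a1 at 0.873 and 0.861. The choice by their sum ties these levels to each other within members.

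Several inflammatory, interferon gamma-induced and MHC class I genes were lower in sitagliptin members than in control members, and Maf and Mrc1 were somewhat higher. Of 5240 genes with at least 100 UMIs over the members of both libraries, 142 (2.71%) were at least 1.5-fold higher and 126 (2.40%) at least 1.5-fold lower, 5.11% in either direction. In the rest of the base 23 (0.439%) and 15 (0.286%) of the same genes were. The sums behind these counts were 2928554 and 1419375 UMIs in members, against 39022740 and 27508633 in the rest, so the counts do not show that members differed more. Mrc1 had 1893 CPM in sitagliptin members and 1579 CPM in control members (1.20, 1.14 to 1.26) and Maf 296 CPM in sitagliptin members and 212 CPM in control members (1.40, 1.22 to 1.60). In the rest the ratios were 1.20 and 1.29, and both genes stayed under 1.5-fold.

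Of the inflammatory cytokine list, 7 of 18 tested genes were past 1.5-fold downward and none upward, and 16 had a ratio below 1. The median log2 ratio was -0.45 in members and -0.04 in the rest of the base, beside -0.03 and -0.07 over all tested genes. Ccl4, an inflammatory chemokine, had 340.1 CPM in sitagliptin members and 545 CPM in control members, a ratio of 0.624 (0.567 to 0.686), against 0.986 in the rest. Nfkbia, the inhibitor that NF-kappa-B induces, had 665 CPM in sitagliptin members and 1002 CPM in control members (0.664, 0.619 to 0.711), against 0.862 in the rest. Ptgs2 (0.643), Cxcl3 (0.530), Il1a (0.601), Ccl3 (0.648) and Inhba (0.654) were the others. Il1b went against them, with 910.3 CPM in sitagliptin members and 809 CPM in control members (1.13, 1.05 to 1.21) and 0.915 in the rest. Cxcl2, a neutrophil attractant, had 2602 CPM in sitagliptin members and 3688 CPM in control members, a ratio of 0.706, with 1.04 in the rest.

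Of the interferon gamma list, 5 of 14 tested genes were past 1.5-fold downward and 13 lay below 1, with a median log2 ratio of -0.33 in members and -0.12 in the rest of the base. Gbp2, an interferon-induced GTPase, had 246 CPM in sitagliptin members and 388 CPM in control members (0.633, 0.566 to 0.709), and Acod1, the itaconate-forming enzyme, 42.3 CPM in sitagliptin members and 90.2 CPM in control members (0.470, 0.364 to 0.606). The rest gave 0.892 and 0.997 for these 2 genes. Gbp5 and Socs1 were also past the limit. Cxcl9, which attracts T cells, had 298 CPM in sitagliptin members and 312 CPM in control members (0.954, 0.850 to 1.07), against 1.34 in the rest. MHC class I genes gave 3 of 13 past the limit, all downward (H2-T22, Psmb9 and Tap1), and a median of -0.41 in members and -0.24 in the rest of the base. MHC class II genes gave 0 of 10 and a median of -0.25 in members and -0.07 in the rest of the base. The type I interferon list gave 0 of 13, with 6 genes above 1 and 7 below.

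Of alternative activation, 3 genes were higher in sitagliptin members, and Retnla and Ccl24 rested on few barcodes. In that list 3 of 12 tested genes passed 1.5-fold, all upward. Retnla, a secreted protein induced by interleukin-4, had 259.5 CPM in sitagliptin members and 113 CPM in control members (2.30, 1.94 to 2.75), with UMIs in 32 and 14 members, and 1 barcode held 27.9% and 30% of them. Its log2 ratio was 1.20, but -7.4e-05 with the top 10%, 0.07 with scores from thinned barcodes, 1.99 with the base set by C1q genes alone and 2.88 within the main cluster. Ccl24, a chemokine for eosinophils, had 68.3 CPM in sitagliptin members and 18.3 CPM in control members (3.73, 2.47 to 5.85), a log2 ratio of 1.90, which was -0.35 with scores from thinned barcodes and 2.15 with 5% taken from each library. Of its 26 UMIs in control members, 13 lay in 1 barcode. Chil3 had 39.95 CPM in sitagliptin members and 8.45 CPM in control members (4.73, 2.61 to 9.41). It was a leading gene of the cluster with Plac8 and Ly6c2, which held 2 sitagliptin and 0 control members. The part of these barcodes in its ratio was not tested, and its ratio was not read under the alternatives. Arg1 differed by less than its counting interval, with 3085 CPM in sitagliptin members and 3121 CPM in control members (0.988, 0.953 to 1.02), and 1.01 in the rest. Ccr2 had 59.8 CPM in sitagliptin members and 26.1 CPM in control members (2.29, 1.60 to 3.36), with 1.33 in the rest, and a UMI after thinning in 9.94% of sitagliptin members and 5.43% of control members, beside 19.3% and 15.2% of the T cell barcodes. T cells can make Ccr2 themselves, so they give no background for it.

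Of the 12 genes with the highest ratio in sitagliptin members, 3 had nearly the same ratio in the rest. Zbed5, a gene derived from a transposase, had 347 UMIs in sitagliptin members and 2 in control members, a ratio of 84.1 (23.1 to 697), and 93.4 in the rest. Atp5k, a subunit of ATP synthase, had ratios of 1.88 in members and 1.89 in the rest, and Ndufb1-ps, named as a pseudogene of a complex I subunit, 1.79 and 1.83. The ratio was larger in members than in the rest for Hspa1a, a heat shock protein (4.55 and 1.41), and for Nrg1, which encodes neuregulin-1 (2.36 and 1.12). The ratio of ratios, members over rest, was 3.23 (1.98 to 5.29) for Hspa1a and 2.11 (1.63 to 2.73) for Nrg1. The log2 ratio of Hspa1a between diets was 2.19, and 1.14 to 2.58 over the alternatives, the lowest with the top 10%. Hspa1a rested on few barcodes, with 169 UMIs in 39 sitagliptin members, 26 of them in 1 barcode, and 18 UMIs in 13 control members. Without the barcode with most UMIs in each library its ratio was 4.62. After thinning it was seen in 6.52% of sitagliptin members and 2.72% of control members. Nrg1 had 118 CPM in sitagliptin members and 50.02 CPM in control members and was seen in 17.7% of sitagliptin members and 5.98% of control members after thinning, with at most 4.35% of the T cell barcodes. Areg, Tmx3, Aida and Med10 had ratios of 1.95, 1.85, 1.83 and 1.77.

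Spp1, the gene of osteopontin, was among the 12 lowest ratios and the most abundant of them. It had 1356 CPM in sitagliptin members and 2515 CPM in control members, a ratio of 0.539 (0.515 to 0.564), and 2327 and 3058 CPM in the rest (0.761). The ratio of ratios was 0.708 (0.676 to 0.742), and a Spp1 UMI was seen after thinning in 61.2% of sitagliptin members and 74.5% of control members. The T cell barcodes had 10.96% and 18.8%. In the lipid-associated list 2 of 12 tested genes passed downward, Spp1 and the protease Ctsd (0.663), with a median log2 ratio of -0.35 in members and -0.15 in the rest of the base. The C1q genes were lower too, by description, with C1qa at 2112 CPM in sitagliptin members and 2819 CPM in control members (0.749, 0.720 to 0.780) and 0.807 in the rest, and in the complement list C3 (0.544) and Cfp, the gene of properdin (0.651), passed. Ass1, argininosuccinate synthase, had 73.1 CPM in sitagliptin members and 141 CPM in control members (0.519, 0.426 to 0.632), and AW112010 167 CPM in sitagliptin members and 319.9 CPM in control members (0.521, 0.458 to 0.593). H2-T22, Selenom, Smpdl3a, Gbp5 and Limd2 had ratios of 0.496 to 0.554, and Mmp13, a collagenase, 0.491. S100a8 was at 7.17 CPM in sitagliptin members and 84.5 CPM in control members, and 0.260 replaced the ratio of 0.0848 when the barcode with most S100a8 UMIs was left out of each library. Its log2 ratio was -3.56, and -4.28 to -1.65 over the alternatives.

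**Figure D5:**
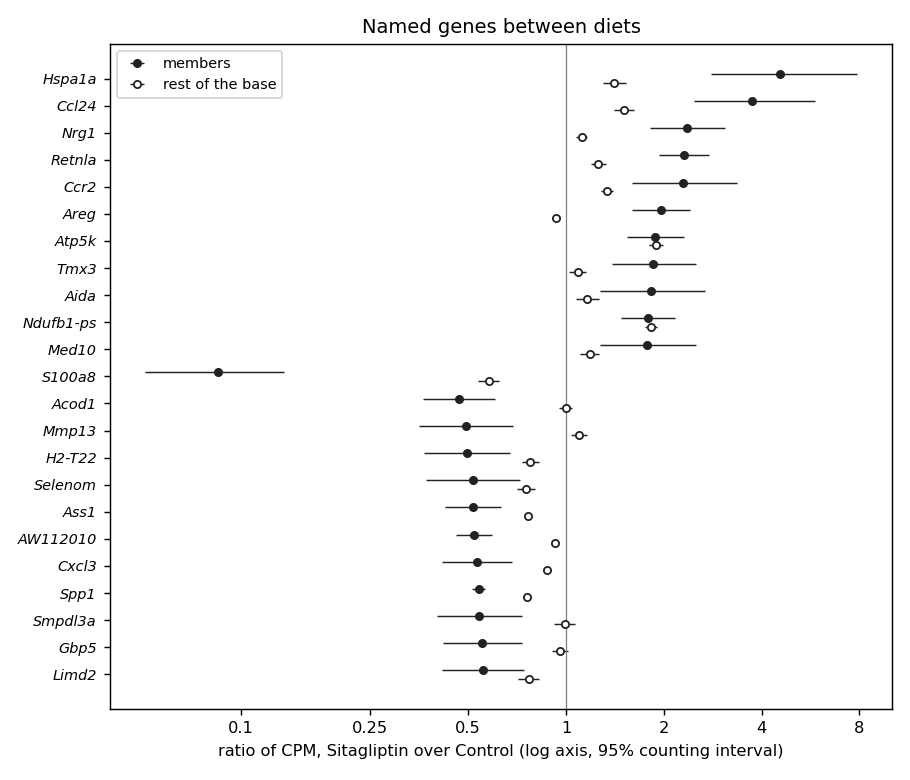
Ratio of CPM, sitagliptin over control, on a log axis with 95% counting intervals for the named genes except Zbed5 (whose ratio lies beyond the axis), in members (filled) and in the rest of the base (open). Atp5k and Ndufb1-ps have nearly the same ratio in both, whereas the ratios of Areg and Mmp13 in members and in the rest lie on opposite sides of 1.

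The resident macrophage list was mixed between diets. It had 12 tested genes above 1 and 9 below, with 2 of 21 past 1.5-fold upward (Ccl24 and Gpr34) and 1 downward (Ninj1). Its median log2 ratio was 0.13 in members and 0.25 in the rest of the base. Selenop had 951 CPM in sitagliptin members and 743 CPM in control members (1.28, 1.19 to 1.38) and Dab2 1270.2 CPM in sitagliptin members and 967 CPM in control members (1.31, 1.23 to 1.40). Pf4 had 1778 CPM in sitagliptin members and 2105 CPM in control members (0.845, 0.807 to 0.884). Gas6 had 115 CPM in sitagliptin members and 126 CPM in control members (0.915, 0.761 to 1.10). Ccl8, a gene of the chemokine list and not of this one, had 1082 CPM in sitagliptin members and 1503 CPM in control members (0.720, 0.681 to 0.760). Cell cycle genes gave 1 of 19 past 1.5-fold downward (Rrm2), glycolysis and hypoxia genes 1 upward (Bnip3) and 1 downward (Hilpda) of 22, and immediate early genes 1 upward (Hspa1a) of 17. Mef2c (1.63) passed upward among 22 transcription factors and Smad4 (1.65) among 12 genes of the TGF-beta and IL-10 pathway. Chemokine genes gave 2 of 16 upward (Ccl24 and Ccr2) and 1 downward (Ccl5), and monocyte genes 2 of 7 upward (Ccr2 and Chil3). In growth factors and matrix, Areg passed upward and Mmp13 downward of 19. In members, 0 of 8 iron and haem genes and 0 of 14 scavenger and endocytic receptors passed. Beside 5.11% of all tested genes in either direction, such counts do not set these lists apart.

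Dpp4, the target of sitagliptin, was nearly absent from members. There were 3 Dpp4 UMIs in sitagliptin members and 1 in control members, or 1.02 and 0.705 CPM, so no difference was detectable at this depth. The rest of the base had 5.20 and 6.33 CPM. Of the list of DPP4, its relatives and its substrates, 3 of 9 tested genes were past 1.5-fold downward (Ccl3, Ccl4 and Ccl5), and the median log2 ratio was -0.26 in members and 0.03 in the rest of the base.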

How the data were processed

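Each library's deposited file is a matrix of raw UMI counts, whole numbers throughout, over 32285 gene IDs and the cell barcodes, from a SeekOne DD 5' kit per the labels' protocols. The sources used here give no aligner, counting program, genome build or cell filter. Groups were taken from the treatment label. Genes that share a symbol were summed (Python 3.11.15, scanpy 1.11.5, numpy 2.4.6, scipy 1.17.1, pandas 2.3.3). UMIs were summed over members and over the rest of the base of each library and scaled to CPM of that sum. Ratios had exact conditional binomial 95% intervals, levels exact Poisson ones, shares Clopper-Pearson ones and share ratios log (Katz) ones. No test was run. A gene was called past the fold at 2-fold in both libraries (members over rest, at least 20 CPM over the base of each library, a filter added after the files were seen) or at 1.5-fold (between diets, at least 100 UMIs in members). A side at 0 UMIs was set to 3 counts.

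Genes were named by rank: the 12 highest and 12 lowest members-over-rest ratios that had one direction in both libraries, at least 50 UMIs in each base and at least 50 CPM on the higher side, and the 12 highest and 12 lowest ratios between diets with at least 100 UMIs and 50 CPM. The genes of the rule, Ptprc, mitochondrial, ribosomal, haemoglobin, antigen receptor, Gm, Rik and Y-linked genes, Xist and Tsix stayed out. Up to 4 genes per list were also named, and others after their values were seen. The members and lists were chosen with earlier results of these data known. Scrublet found 0% doublets automatically, so no barcode was removed in the main values. Clustering used 2000 variable genes without the rule genes, 30 components, 15 neighbours and Leiden (leidenalg 0.10.2) at resolution 1.0. Some genes of the lists are not reported here by name. The ratio code was tested on simulated counts.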

Additional observations from a re-analysis of the deposited data

Results flagged for a closer look

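The ratio between diets of 6 named genes, Areg, Mmp13, Il1b, Cxcl2, Mmp12 and Ctss, lay on the other side of 1 in members than in the rest of the base, with counting intervals that left out 1 in both. The difference was not tested, since each diet had 1 library. Areg, the gene of the growth factor amphiregulin, had 164 CPM in sitagliptin members and 83.8 CPM in control members, a ratio of 1.95 (1.60 to 2.41). In the rest it had 320.1 CPM in the sitagliptin library and 344 CPM in the control library, a ratio of 0.932 (0.907 to 0.957). Areg UMIs were in 44 sitagliptin and 24 control members, and its log2 ratio of 0.97 was 0.35 with each barcode weighted alike, and 0.04 to 1.08 over the alternatives, the lowest with the base set by C1q genes alone. Mmp13, a collagenase gene, had 25.95 CPM in sitagliptin members and 52.8 CPM in control members, a ratio of 0.491 (0.352 to 0.685), and 80.3 CPM in the sitagliptin rest and 73.3 CPM in the control rest (1.10, 1.04 to 1.16). Its log2 ratio in members was -1.03, and -1.50 to -0.10 over the alternatives, the highest with the top 10%. Il1b had a ratio of 1.13, 1.05 to 1.21 in members and 0.915, 0.907 to 0.924 in the rest. Cxcl2 had a ratio of 0.706, 0.681 to 0.731 in members and 1.04, 1.03 to 1.05 in the rest. Mmp12 had a ratio of 0.700, 0.579 to 0.847 in members and 1.19, 1.16 to 1.22 in the rest. Ctss had a ratio of 0.868, 0.838 to 0.899 in members and 1.04, 1.03 to 1.05 in the rest. Within the main cluster, the ratios in members and in the other barcodes were 1.31 and 1.02 for Areg and 0.690 and 0.818 for Mmp13. For Il1b they were 1.09 and 1.05, and for Mmp12 0.600 and 0.969. Each of these pairs lay on the same side of 1.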

How the results depend on the processing

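The member share ratio stayed above 1 and within its interval under all 9 alternatives, from 1.21 to 1.61. Of the genes of the rule, only Col14a1 was left out among these alternatives. The choice without Fcrls was not one of them. It gave 295 of 5684 sitagliptin and 211 of 4435 control base barcodes, against 322 and 184 under the full rule. Its 2 shares lay closer together than under any of the 9, so the ratio was not stable to leaving out Fcrls. Taking 5% of each library fixes the shares and gives no ratio. Counts moved by over 1.5 times in 15 cases. With the base set by C1q genes alone, 40 genes were 2-fold higher in members, against 62. Within the main cluster, an alternative added after seeing the data, 9 were higher and 17 lower, against 130. A fold of 1.5 gave 187 and 265 for members, and a fold of 2 gave 20 and 8 between diets, against 142 and 126. A minimum of 50 UMIs gave 134 and 631 for members and 299 and 294 between diets. No minimum gave 4502, 658, 1300 and 3871.

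The log2 ratio between diets of Retnla was -7.4e-05 with the top 10% and that of Ccl24 -0.35 with thinned scores. The interferon gamma list median for members over rest was 0.26 within the main cluster, against -0.59. The cause was not tested. Of the other gene values, 583 stayed within the counting interval of the reported value and 86 moved outside it. For members over rest, this interval ran from the lower of the 2 libraries' low limits to the higher of their high limits. It is thus wider than the interval of 1 library. Of the list medians, 470 stayed within 0.1 on the log2 scale and 117 moved further. Centring on the median shifted ratios by under 0.1 on the log2 scale. S100a8 has no value without barcodes that carry genes of other cells, since it is one of those genes. No paired analysis was possible because each diet had 1 library. Intervals of shares take barcodes as independent, and those of gene levels and ratios take single UMIs as independent. All cover counting error only. The gene intervals leave out the spread between barcodes and are too narrow where UMIs lie in few of them. Of 760 Retnla UMIs in sitagliptin members, for example, 212 lay in 1 barcode.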

Other observations

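Outside the base, 64 of 4082 sitagliptin barcodes (1.57%) and 47 of 4259 control barcodes (1.10%) also reached the lowest score of a member. Of these, 29 and 29 had a UMI of Cd3d, Cd3e or Trac, 33 and 22 had none of Ptprc, and 7 and 2 had fewer than 5 UMIs of the C1q genes and Lyz2.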
